A study of Mus musculus with 35 samples.

Results

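The MT486 populations were 4 of the 35 samples of the series, 2 infected with an adenovirus carrying Cre recombinase and GFP (Ad-Cre) and 2 infected with a GFP-only adenovirus (Ad-GFP). Members were chosen by their labels, as all infected populations with the MT486 construct, and each Ad-Cre library was paired with the Ad-GFP library of the same replicate number. The cells were immortalized mouse embryonic fibroblasts (iMEFs) with 1 floxed and 1 null Nelfb allele, so that Ad-Cre removes the only functional endogenous copy; this genotype was shared by every group described here. Before infection the cells had received a lentiviral construct in which the CMV promoter drives C-terminally flag-tagged mouse NELFB with the MT486 alanine substitution, followed by G418 selection, and RNA was collected on day 7. The EV (empty vector), WT (wild-type NELFB), MT194 (a different NELFB substitution) and DMT (both substitutions) populations were handled in the same way, with 2 Ad-Cre and 2 Ad-GFP libraries each. The replicates are labelled as biological replicates, but the labels do not say whether they began from separately derived stable populations, and the p-values measure only the spread between these libraries. MT486 cells were selected pools carrying an overexpressed cDNA, and any effect of the Ad-Cre virus other than loss of Nelfb is part of the contrast.

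NELFB is a subunit of the negative elongation factor (NELF), which joins NELFA, NELFC/D and NELFE and holds RNA polymerase II close to the start of genes. In fibroblasts NELFB has been tied to proliferation and to the expression of metabolic and cell cycle genes. The (NKN)486AAA change lies in the HEAT repeats of NELFB and was used by the study as a change that affects the binding of NELFE.

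The substitution is shown here at the level of the coding sequence, because it is what separates MT486 from the wild-type construct. The study's mutagenesis primer was aligned without gaps to the 13-exon Nelfb transcript of GENCODE vM21 (GRCm38, the assembly called mm10), and the capitals mark the 3 adjacent codons in which the 2 sequences differ, by 6 bases of the 58.
Nelfb reference: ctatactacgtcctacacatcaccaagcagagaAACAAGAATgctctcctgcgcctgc
MT486 primer: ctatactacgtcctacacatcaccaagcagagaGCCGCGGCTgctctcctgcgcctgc
The aligned stretch is in exon 10 of the 13 exons of Nelfb, at chr2:25203153-25203210 on the minus strand, within the coding sequence. In the numbering of that transcript the changed codons are 488 to 490 of 631, whereas the construct is named for position 486.

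Sequencing depth was similar between the groups compared. The MT486 Ad-GFP libraries held 19150051 and 18205049 reads assigned to genes, and the MT486 Ad-Cre libraries held 20175394 and 23819233. The share of reads outside annotated genes was 14.8% and 21.3% in the Ad-GFP libraries and 14.6% and 19.7% in the Ad-Cre libraries, so that it followed the replicate number rather than the virus. Expression levels below are CPM, reads scaled to the effective library size, and 13805 genes passed the filter on low counts.

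Nelfb itself, the targeted gene, was measured at 92.9 and 78.6 CPM in the MT486 Ad-GFP libraries and at 116 and 128 CPM in the MT486 Ad-Cre libraries. Both Ad-Cre libraries thus lay above both Ad-GFP libraries, with a log2 fold change of 0.52 ± 0.15 (SE, n = 2 per group, edgeR adjusted p = 0.0238). In the fit without the replicate block the adjusted p was 0.234, and it was 0.196 without MT486 Ad-Cre replicate 2, 0.0729 without Ad-GFP replicate 1 and 0.149 without Ad-GFP replicate 2. In EV populations, which carry no NELFB cDNA, Nelfb was at 46.1 and 39.6 CPM after Ad-GFP and at 7.97 and 5.46 CPM after Ad-Cre. Reads from the construct and from the endogenous gene are counted together, and therefore the Nelfb level in MT486 populations does not show how much of the floxed allele was removed. Among the partners of NELFB, Nelfcd, which encodes NELFC/D, was at 29.9 and 31.7 CPM after Ad-GFP and at 41.9 and 34.6 CPM after Ad-Cre (log2 fold change 0.31 ± 0.11, adjusted p = 0.0533). Nelfa had a log2 fold change of 0.15 ± 0.09 (adjusted p = 0.24) and Nelfe, which encodes the RNA-binding subunit, one of 0.07 ± 0.10 (adjusted p = 0.67). Of 23 tested pausing and elongation factors 3 rose (13.0%, near the 10.8% of all genes tested that rose), each by less than 0.32 on the log2 scale, and none fell; Cdk9, the kinase of P-TEFb, was among the 3 (0.31 ± 0.09, adjusted p = 0.0161). Without the block no member of this list passed, and with any single library left out at most 1 did.

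Ad-Cre infection of MT486 cells changed the expression of 586 genes. A gene was called when its edgeR adjusted p lay under 0.05 and its log2 fold change was beyond 1 in either direction. Of these, 293 rose (2.12% of the genes tested) and 293 fell (2.12%). At the adjusted p alone, 1494 genes rose (10.8%) and 1710 fell (12.4%), with a median absolute log2 fold change of 0.515 among the genes that passed. Counts of list members that rose or fell in MT486 use the adjusted p alone. The shares to set beside them are therefore 10.8% and 12.4%. Of the 586, 397 exceeded 1 in size in each pair separately. All had the same sign in both pairs, which a call from these same pairs largely fixes. Without the replicate block 201 genes were called, 101 higher and 100 lower, and all of these were among the 586. Of 145 genes followed by name, 74 passed only with the block, so that many single calls below rest on the pairing of replicates.

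**Figure D1:**
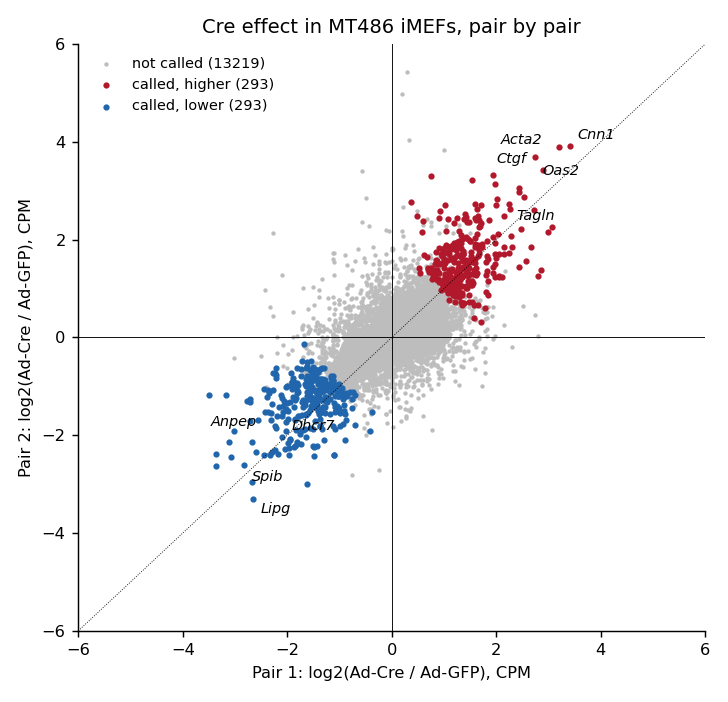
Log2 ratio of Ad-Cre to Ad-GFP CPM in pair 1 (x axis) and pair 2 (y axis), 1 point per gene tested, with called genes in red (293 higher) and blue (293 lower). The called genes lie in the upper right and lower left quadrants, and the dotted line marks equal ratios in both pairs.

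Genes of the smooth-muscle contractile apparatus were 5 of the 12 largest increases among genes called with and without the block and with a mean of at least 50 reads. Cnn1, which encodes calponin 1, was at 1.38 and 0.968 CPM after Ad-GFP and at 15.6 and 15.9 CPM after Ad-Cre (log2 fold change 3.74 ± 0.24, adjusted p = 2.59e-08). Acta2, which encodes smooth-muscle alpha-actin, was at 13.9 and 15 CPM after Ad-GFP and at 128 and 224 CPM after Ad-Cre (3.59 ± 0.22, adjusted p = 7.83e-07). The Ad-GFP values of both genes were close together, and the Ad-Cre value of Acta2 in replicate 2 was well above that in replicate 1. Tagln (transgelin, an actin-binding protein) was at 30.4 and 23.1 CPM against 144 and 154 CPM (2.49 ± 0.21). Myl9, a regulatory myosin light chain, was at 25.7 and 17.4 CPM against 93.1 and 91.5 CPM (2.12 ± 0.17). Actg2, the enteric smooth-muscle actin, was measured at 0.889 and 1.08 CPM against 3.94 and 4.97 CPM (2.18 ± 0.28). The choice of the largest changes required groups that do not overlap, which 35.4% of all genes tested met. Of the 24 tested genes on the contractile list 17 rose and 1 fell, with a median log2 fold change of 0.83 against 0.0039 over all genes tested. The gene that fell was Mylk (-1.90), the kinase that phosphorylates myosin light chain. Without the replicate block 11 rose and 1 fell. The broadly expressed cytoskeletal members Flna (0.96), Actn1 (1.00), Tpm2 (1.10) and Csrp1 (1.19) also rose, while the transcriptional coactivator Mkl1 was at -0.14 and Srf, the factor it acts with, at 0.55, neither of which passed. Myocd, Myh11 and Des, which mark differentiated smooth muscle, were too low to be tested. The measured rise in contractile genes cannot be split into more RNA per cell and more cells of one kind, since these are bulk samples.

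Targets of YAP and of TGF-beta signalling were examined next. Ctgf (Ccn2), a matricellular protein and a well-known target of the coactivators YAP and TAZ, was at 53.8 and 65.0 CPM after Ad-GFP and at 400 and 697 CPM after Ad-Cre (3.16 ± 0.34, adjusted p = 0.00012). Ankrd1, also a YAP target, was at 12.9 and 8.88 CPM against 33.1 and 27.6 CPM (1.49 ± 0.18). Cyr61 (Ccn1), a close relative of Ctgf, was at 254 and 401 CPM against 533 and 1195 CPM (1.33 ± 0.23, adjusted p = 0.00137), and without the block its adjusted p was 0.268. The 2 Cyr61 libraries of replicate 2 were higher than their replicate 1 counterparts, so that the pairs differed in level but not in direction. Of 26 YAP/TEAD target genes 11 rose and 2 fell, with a median of 0.33, and without the block 2 rose and none fell. The number that passed was 6 without MT486 Ad-Cre replicate 2, 7 without Ad-GFP replicate 2 and 8 without Ad-GFP replicate 1. Among TGF-beta ligands, receptors and targets 5 of 23 rose and 3 fell (21.7% and 13.0%, the latter near the 12.4% of all genes tested; 4 and none without the block; 5 passed in all without MT486 Ad-Cre replicate 1 or Ad-GFP replicate 2). Tgfbi, an extracellular matrix protein, fell from 368 and 477 CPM to 196 and 261 CPM (-0.89 ± 0.13). The collagens showed no common direction, with 2 of 20 higher and 5 lower, none of which passed without the block. Of 16 metalloproteinases and inhibitors 1 rose and 4 fell, again none without the block. Without MT486 Ad-Cre replicate 1 the number that passed in either direction was 3 in each of these lists. Col12a1 rose (1.24 ± 0.17) and Col14a1 fell (-1.33 ± 0.14), although both encode fibril-associated collagens. Col1a1, the most abundant collagen at a mean of 5958 CPM, had a log2 fold change of -0.39 that did not pass.

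Interferon-stimulated genes rose almost throughout. Of 45 tested, 40 rose and none fell, with a median log2 fold change of 1.02, and without the block 16 rose. Oas2, an oligoadenylate synthetase that senses double-stranded RNA, was at 1.14 and 0.740 CPM after Ad-GFP and at 8.10 and 10.6 CPM after Ad-Cre (3.27 ± 0.40, adjusted p = 7.16e-05). Oas1g, a paralog of Oas2, was at 1.43 and 0.740 CPM against 6.04 and 5.85 CPM (2.42 ± 0.25, adjusted p = 4.26e-06). Reads from near-identical Oas1 copies could be lost or divided by the mapping filter, so that the level of a single Oas1 gene is uncertain. Ifi44 was at 40.9 and 12.9 CPM after Ad-GFP and at 127 and 80.1 CPM after Ad-Cre (2.03 ± 0.38). Its replicate 1 libraries were higher than its replicate 2 libraries in both groups. The summed level of the whole list was 2473 and 1970 CPM after Ad-GFP and 4366 and 4319 CPM after Ad-Cre. The transcription factors Irf9 (0.46) and Irf7 (1.26) passed, and Stat2 (0.29) did not. In the class I antigen presentation group 8 of 15 rose, none fell, and the median was 0.811. Only 1 rose without the block, 3 without MT486 Ad-GFP replicate 2, and 5 without either Ad-Cre library. Psmb9, an interferon-inducible proteasome subunit, was at 1.63 and 0.683 CPM against 4.52 and 4.17 CPM (1.89 ± 0.27), and H2-D1, a class I heavy chain, at 140 and 159 CPM against 333 and 614 CPM (1.59 ± 0.35). Of 23 tested chemokines and cytokines 11 rose and 1 fell. Without the block 3 rose and none fell, and the number that passed in either direction was 5 without MT486 Ad-GFP replicate 1 and 7 without Ad-Cre replicate 1. Cxcl10, a chemokine induced by interferon, was at 15.9 and 18.8 CPM against 43.1 and 49.2 CPM (1.41 ± 0.12, adjusted p = 7.27e-07), and Ccl9 fell from 509 and 479 CPM to 104 and 187 CPM (-1.84 ± 0.41, adjusted p = 0.00857). Ccl9 did not pass without MT486 Ad-Cre or Ad-GFP replicate 1, nor H2-D1 without Ad-GFP replicate 2.

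The promoters of 2 genes are printed because their lists moved together and a motif search found a match in each. RefSeq promoters of 300 bases, from 250 before to 50 after the start (GRCm38.p6), were searched on both strands for TTCNNTTTC (an interferon response element), GGAATG (the TEAD core), CACCCCAC (a sterol element core), TATAAA and the CArG box, and capitals mark every match. Of 147 genes looked up for a promoter 93 matched an entry.
Oas1g, chr5:120887564-120887863, minus strand: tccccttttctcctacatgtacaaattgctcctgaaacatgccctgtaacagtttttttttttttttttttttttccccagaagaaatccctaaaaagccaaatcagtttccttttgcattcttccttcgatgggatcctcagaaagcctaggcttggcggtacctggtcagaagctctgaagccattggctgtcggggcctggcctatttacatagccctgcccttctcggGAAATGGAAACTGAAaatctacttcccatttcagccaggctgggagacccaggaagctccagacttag
Myl9, chr2:156775214-156775513, plus strand: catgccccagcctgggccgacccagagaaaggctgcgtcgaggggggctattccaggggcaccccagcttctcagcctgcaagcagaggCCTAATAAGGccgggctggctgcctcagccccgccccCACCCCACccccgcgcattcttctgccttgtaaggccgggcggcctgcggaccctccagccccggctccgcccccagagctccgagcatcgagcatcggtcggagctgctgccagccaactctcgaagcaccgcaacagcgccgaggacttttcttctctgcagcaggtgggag
In Oas1g the capitals are 2 overlapping interferon elements that begin at positions -18 and -12 from the start. In Myl9 the first capitals are a CArG box, the letters bound by SRF, at position -161, and the second a sterol element core at -124. An interferon element was found in 21 of the 33 interferon-stimulated genes with a promoter entry (63.6%), against 8.77% of the genes tested. A CArG box was found in 5 of 22 contractile genes (22.7%), namely Myl9, Cnn2, Vcl, Filip1l and Srf, against 1.61%. The TEAD core was present in 10 of 20 YAP/TEAD targets (50%), in 10 of 22 contractile genes (45.5%) and in 14.5% of all genes tested. The sterol element core was found in 2 of 17 mevalonate genes (11.8%), in 3 of 22 contractile genes (13.6%), in 0 of 13 SREBP regulators and sterol transport genes, and in 3.80% of all. These are letter matches in a window and not measured binding.

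Genes that fell were led by lipid metabolism. Lipg, which encodes endothelial lipase, was at 15.5 and 18.2 CPM after Ad-GFP and at 2.37 and 1.77 CPM after Ad-Cre (-3.01 ± 0.35, adjusted p = 9.55e-05). Insig1, the endoplasmic reticulum protein that retains the SREBP precursor when sterols are plentiful, was at 184 and 171 CPM against 44.8 and 35.0 CPM (-2.16 ± 0.23, adjusted p = 8.77e-05). Of the 22 genes of mevalonate and cholesterol synthesis 20 fell, none rose, and 18 fell by more than 1 on the log2 scale, with a median of -1.73. Their summed level was 3670 and 4037 CPM after Ad-GFP and 1288 and 1199 CPM after Ad-Cre. Without the replicate block 16 of them passed, all lower. Ggps1 (0.06) and Lbr (-0.08) did not pass.

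The decrease ran along the pathway. At its entry Hmgcs1 (HMG-CoA synthase) had a log2 fold change of -2.02 ± 0.18. Mvd, mevalonate diphosphate decarboxylase, was at 100 and 59.5 CPM after Ad-GFP and at 20.4 and 11.7 CPM after Ad-Cre (-2.32 ± 0.14, adjusted p = 3.96e-08). In Mvd the replicate 1 library was the higher one in both groups. Idi1, the isomerase of the next step, was at 10.5 and 5.81 CPM against 1.57 and 1.24 CPM (-2.51 ± 0.46, adjusted p = 0.00188), and without the block its adjusted p was 0.0995. In the sterol branch Sqle (squalene epoxidase) fell by 1.52 and Tm7sf2, a sterol reductase, was at 32.6 and 38.5 CPM against 5.91 and 7.18 CPM (-2.45 ± 0.13, adjusted p = 4.72e-09). Dhcr7, which catalyses the last step to cholesterol, was at 83.2 and 105 CPM against 19.4 and 25.7 CPM (-2.07 ± 0.09, adjusted p = 1.14e-10). It had the smallest standard error of the pathway genes named here.

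Sterol transport and fatty acid genes fell in the same libraries. Of 18 SREBP regulators and sterol transport genes 10 fell and none rose (3 without the block, and 6 without either MT486 Ad-Cre library or without Ad-GFP replicate 1). The decrease in fatty acid synthesis and desaturation covered 16 of 21 genes, with a median of -0.77, and 7 without the block. Scd2, a stearoyl-CoA desaturase and the most abundant gene of the list, was at 2608 and 3434 CPM against 775 and 907 CPM (-1.83 ± 0.12, adjusted p = 5.8e-08). Scd1, its paralog, was at 325 and 393 CPM against 99.9 and 105 CPM (-1.798 ± 0.11). In fatty acid oxidation 1 of 26 genes rose, Cpt1a, the carnitine palmitoyltransferase that admits fatty acids to mitochondria (114 and 134 CPM against 206 and 255 CPM, 0.89 ± 0.09), and 6 fell; without the block 1 rose and 2 fell, and 4 passed without MT486 Ad-GFP replicate 1. The citrate cycle list had 12 of 27 genes lower and none higher (1 lower without the block), among them Idh1 (-1.37 ± 0.14) and Acly (-0.97 ± 0.09), both of which supply the cytosol with substrate for lipid synthesis. Nuclear-encoded respiratory chain subunits fell in 10 of 75 cases (13.3%) with a median of -0.12, near the 12.4% of all genes tested, and in none without the block, without MT486 Ad-Cre replicate 2 or without Ad-GFP replicate 1. Cytosolic ribosomal protein genes, which encode the core of the translation machinery, fell in 4 of 75 cases with a median of 0.03, and in none without MT486 Ad-Cre replicate 1 or Ad-GFP replicate 1.

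**Figure D2:**
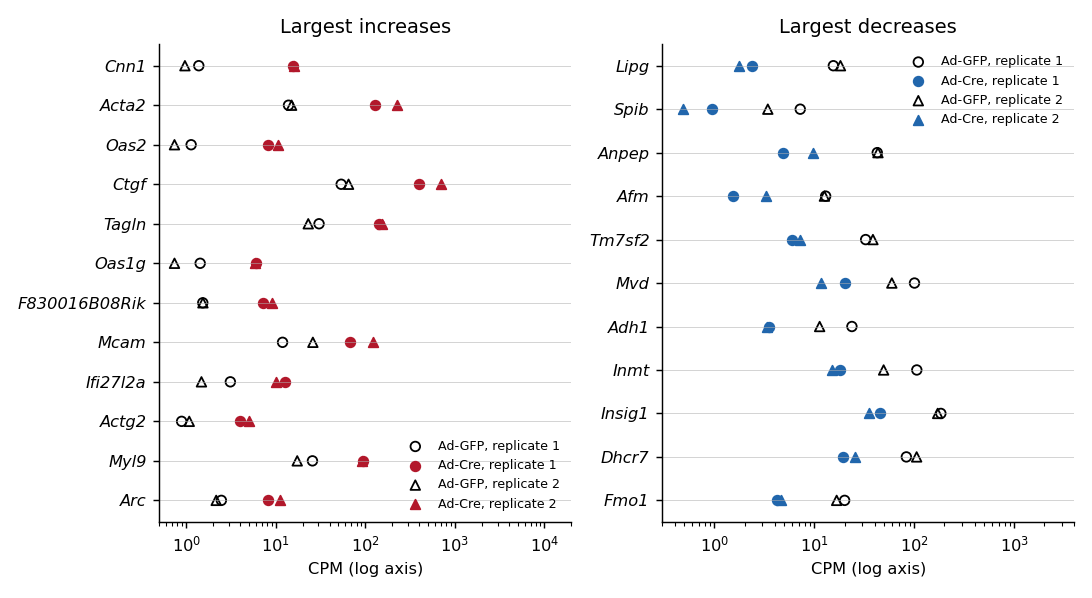
CPM (log axis) in each of the 4 MT486 libraries for the 12 largest increases (left) and 11 of the 12 largest decreases (right) among genes called with and without the replicate block and with a mean of at least 50 reads. Open symbols are Ad-GFP and filled symbols Ad-Cre, circles replicate 1 and triangles replicate 2, and the filled and open symbols are separated in each gene, as the choice of these genes required.

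Among the remaining large decreases, Spib, an ETS transcription factor, was at 7.21 and 3.42 CPM after Ad-GFP and at 0.940 and 0.488 CPM after Ad-Cre (-2.87 ± 0.30). Anpep, a membrane aminopeptidase, was at 42.5 and 43.2 CPM against 4.83 and 9.71 CPM (-2.60 ± 0.28). Anpep values agreed closely within Ad-GFP and differed by more within Ad-Cre, where replicate 1 was lower. The vitamin E-binding protein gene Afm had a log2 fold change of -2.48 ± 0.31 and the alcohol dehydrogenase Adh1 one of -2.28 ± 0.25. Inmt (-2.17 ± 0.36) and Fmo1 (-2.05 ± 0.18), enzymes of xenobiotic and amine metabolism, were also among the 12 largest decreases. On the side of the increases, Mcam, a cell adhesion molecule, was at 11.9 and 26.0 CPM against 66.7 and 121 CPM (2.33 ± 0.23), and Arc, an immediate early gene, at 2.47 and 2.16 CPM against 8.28 and 11.3 CPM (2.07 ± 0.26). Ifi27l2a, an interferon-induced gene, had a value of 2.32 ± 0.42, and the gene model F830016B08Rik one of 2.38 ± 0.33.

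Genes that respond to mitogens were examined as well. Of 19 ERK feedback genes, which are induced by ERK signalling and many of which restrain it, 13 rose and none fell (median 0.63, 2 without the block). Etv4, an ETS factor, was at 5.83 and 4.27 CPM after Ad-GFP and at 17.8 and 15.7 CPM after Ad-Cre (1.72 ± 0.20). In immediate early and AP-1 genes 13 of 27 rose and none fell (2 without the block). Myc was at 64.3 and 61.2 CPM against 129 and 132 CPM (1.06 ± 0.10, adjusted p = 2.1e-06), with little spread in either group. Fos (-1.02) and Fosb (-0.94) had negative estimates that did not pass. For Fosb the 2 Ad-GFP libraries were far apart, at 15.3 and 2.39 CPM, and the Ad-Cre libraries at 4.97 and 3.64 CPM lay between them. The EGF-receptor ligands Ereg (32.2 and 44.4 CPM against 112 and 130 CPM, 1.68 ± 0.14) and Hbegf (24 and 26.4 CPM against 62.2 and 90.6 CPM, 1.57 ± 0.27) rose, and Tgfa (-0.61 ± 0.20) fell, the only members of the 9 tested EGF-family genes to pass. Tgfa did not pass without the block (adjusted p = 0.466) or with any 1 MT486 library left out. Of 8 cornified envelope genes tested 4 rose and none fell (2 without the block, or without any 1 of 3 libraries), and the most abundant, Sprr1a, was at 16.1 and 15.3 CPM against 71.4 and 50.2 CPM (1.94 ± 0.15).

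The pairs differed in the genes of mitosis. Over the 38 G2/M and spindle genes, none passed in either direction, and the median log2 ratio was 0.895 in pair 1 and -0.0089 in pair 2. In pair 1, 37 of the 38 were higher after Ad-Cre, and in pair 2, 18 were. Their summed level was 2121 CPM in the Ad-GFP library of replicate 1, below 3040 CPM in Ad-GFP replicate 2, 3879 CPM in Ad-Cre replicate 1 and 2980 CPM in Ad-Cre replicate 2. Mki67, a marker of cycling cells, was at 215 and 502 CPM after Ad-GFP and at 432 and 422 CPM after Ad-Cre (0.34 ± 0.39, adjusted p = 0.573). Of 47 DNA replication genes 11 rose and none fell, with medians of 0.70 in pair 1 and 0.13 in pair 2. Orc1, a subunit of the origin recognition complex, was at 5.73 and 6.72 CPM against 12.1 and 11.3 CPM (0.92 ± 0.24, adjusted p = 0.0118). No DNA replication gene passed without the block, and 1 passed without MT486 Ad-Cre replicate 1 or without Ad-GFP replicate 1. Of 21 homologous recombination genes none rose and 1 fell, with medians of 0.68 and 0.03 in the 2 pairs. The member that fell, Nbn (-0.38 to -0.21 over the alternative fits), did not pass without the block. The cell cycle inhibitor Cdkn2b (p15) fell from 47.5 and 29.96 CPM to 16.9 and 14.1 CPM (-1.30 ± 0.14), whereas Cdkn1a (p21), a target of p53, went from 14.0 and 13.7 CPM to 38.1 and 27.5 CPM (1.23 ± 0.26). The call of Cdkn1a was lost without MT486 Ad-GFP replicate 1, and that of Orc1 without Ad-Cre or Ad-GFP replicate 1. Of 30 p53 targets 9 rose and 3 fell (10.0%, near the 12.4% of all genes tested), and the median was 0.16 (1 and 1 without the block). Of 23 G1 cyclins, kinases and inhibitors 7 rose (30.4%) and 4 fell (17.4%, against 12.4% of all genes tested). The fit without the block had 1 each way. Without MT486 Ad-GFP replicate 1 the p53 and G1 lists each had 7 members that passed.

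Replication-dependent histone genes, whose transcripts normally lack a poly(A) tail, were tested for 32 of 66 members in these poly(A)-selected libraries. Of the 32, 17 rose and none fell, with a median of 1.54, while 10 rose by DESeq2 with the block and 2 by edgeR without it. Without MT486 Ad-Cre replicate 2 or Ad-GFP replicate 1 the number was 7, and without Ad-Cre replicate 1 it was 10. Of the 66 members 56 were under 1 CPM, and the list summed to 100 and 54.4 CPM after Ad-GFP and 134 and 104 CPM after Ad-Cre. Hist1h4h was at 1.14 and 0.968 CPM against 3.63 and 3.90 CPM (1.84 ± 0.24). The most abundant member, Hist1h1c at a mean of 39.2 CPM, had a log2 fold change of 0.41 that did not pass. Because histone genes are near-identical copies, the value of a single member is uncertain.

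**Figure D3:**
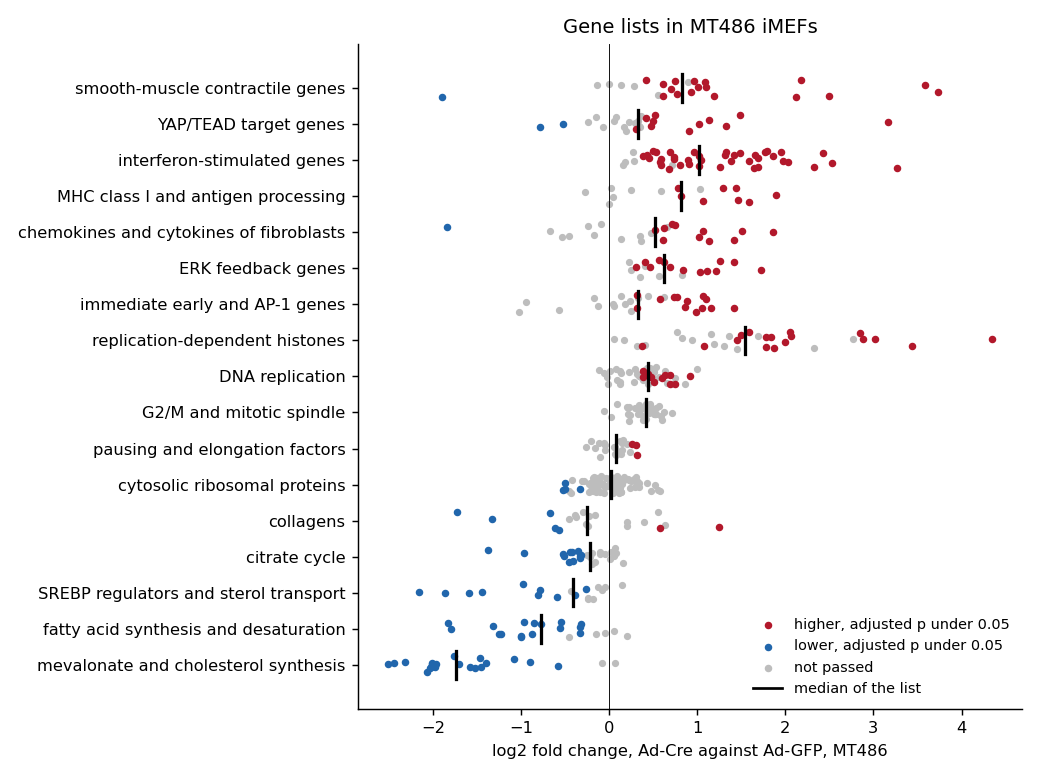
Log2 fold change of Ad-Cre against Ad-GFP in MT486 populations for the tested members of 17 gene lists, 1 point per gene, in red or blue where the adjusted p was under 0.05 and grey otherwise, with the list median as a black bar. Interferon-stimulated genes lie to the right with a median of 1.02 and mevalonate genes to the left with a median of -1.73, and ribosomal protein genes centre on 0.

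Markers of other cell types were checked in the same 4 libraries. The fibroblast list summed to 25900 and 37850 CPM after Ad-GFP and to 23800 and 40740 CPM after Ad-Cre, led by Fn1 at a mean of 13510 CPM, while Thy1 had no read. Of the 12 smooth muscle markers 9 were tested, 6 rose and 1 fell, and the list summed to 326 and 365 CPM against 517 and 699 CPM, with Smtn the most abundant at 113 CPM. Its members overlap with the contractile list. Epithelial markers summed to 2.72 and 2.05 CPM against 5.82 and 4.39 CPM, with 11 of 12 under 1 CPM, Epcam, Krt8 and Krt14 without a read and Krt19 the most abundant at 2.95 CPM. Endothelial markers summed to between 3.90 and 7.65 CPM with Eng at 2.50 CPM, T cell markers to between 0.285 and 1.02 CPM with Lck at 0.38 CPM and Cd3e without a read, and skeletal muscle markers to between 1.03 and 1.42 CPM with Mylpf at 0.469 CPM. Macrophage markers summed to 406 and 430 CPM against 241 and 289 CPM, nearly all of it from Cd14 at 332 CPM, with 7 of the 12 under 1 CPM and Tyrobp without a read. Adipocyte markers summed to 208 and 197 CPM against 161 and 146 CPM, led by Fabp4 at 84.1 CPM, and 3 of the 5 tested fell, against 12.4% of all genes tested, while Adipoq and Plin1 had no read. None of these adipocyte genes passed without the block or without MT486 Ad-Cre replicate 2, and 1 did without Ad-Cre or Ad-GFP replicate 1. Neuron markers lay between 15.4 and 22.4 CPM, led by Map2 at 5.16 CPM, and 2 of the 7 tested fell, both by more than 1 on the log2 scale; none passed without MT486 Ad-Cre or Ad-GFP replicate 2, and 1 did without Ad-Cre replicate 1. Among 7 macrophage markers tested 1 rose and 2 fell (1 passed without MT486 Ad-Cre replicate 2), among 14 fibroblast markers 1 rose and 1 fell, and 1 epithelial marker of 2 and 1 endothelial marker of 6 rose. The endothelial marker passed in 1 of the 4 fits that left out an MT486 library, the one without Ad-Cre replicate 2. No T cell or skeletal muscle marker passed, and without the block no marker passed outside the smooth muscle list, where 5 rose and 1 fell. The part of such cells in the changes above was not tested.

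The Cre effect in MT486 was next compared with that in EV and WT populations, which carry no NELFB cDNA and wild-type NELFB, to ask how far the mutant stands in for the endogenous protein. Each population has its own Ad-GFP libraries, so that the contrasts share no library. Nelfb in WT was at 97.5 and 82.8 CPM after Ad-GFP and at 75.9 and 60.5 CPM after Ad-Cre (-0.40 ± 0.15, edgeR adjusted p = 0.135). The MT486 Ad-Cre libraries were at 116 and 128 CPM. After Ad-Cre, MT486 and WT thus differed in Nelfb RNA as well as in sequence, and the part of that level was not tested. The 293 genes called higher in MT486 had a median log2 fold change of 1.43 in MT486, 1.43 in EV, 1.24 in MT194, 1.39 in DMT and 0.67 in WT. For the 293 called lower the medians were -1.40 in MT486, -1.67 in EV, -1.31 in MT194, -1.64 in DMT and -0.70 in WT. These genes were chosen by their MT486 value, which by itself pushes the MT486 medians outward. Of the 586, 573 had the same sign in EV and 548 in WT. The share with the same sign over all genes tested was not counted. Over all 13805 genes the log2 fold changes in MT486 correlated with those in EV (Pearson r = 0.697) and in WT (0.576). Shared signs are thus not particular to the 586.

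A test of the difference between the effects called 409 genes against EV (2.96%), 224 with a more positive and 185 with a more negative value in MT486. In 385 of the 409 the MT486 effect was the smaller one in size and in 24 the larger. The effects in MT486 and EV had the same sign in 304 of the 409 and opposite signs in 105. In the fit without the block 1 gene was called, which was Nelfb. Leaving out single libraries gave between 52 genes (without MT486 Ad-Cre replicate 1) and 311, and 6 of the 8 fits fell below the full count by over 1.5 times: 52 as given, 63 without EV Ad-GFP replicate 2, 84 without EV Ad-Cre replicate 2, 155 and 167 without MT486 Ad-GFP replicates 1 and 2, and 223 without EV Ad-GFP replicate 1. Among the largest positive differences was Stk32b, a kinase, at -1.89 in MT486 and -3.86 in EV (1.97 ± 0.31, adjusted p = 0.0045). The largest was Nelfb (3.19 ± 0.24, adjusted p = 3.2e-05), which the construct itself supplies. On the negative side Gsta4, a glutathione transferase, was at 10.5 and 8.49 CPM after Ad-GFP and at 11.0 and 9.94 CPM after Ad-Cre in MT486, while in EV it was at 8.11 and 7.85 CPM against 65.3 and 42.5 CPM (difference -2.59 ± 0.34, adjusted p = 0.0031). Among called genes whose 8 libraries averaged 50 reads or more, Fosb had the most negative difference (-0.94 in MT486 and 1.90 in EV, adjusted p = 0.0447) and Sprr2g the third (1.65 and 3.95, adjusted p = 0.0275). Nelfb, Stk32b and Gsta4 were called in all 8 fits that left out 1 library, and Fosb and Sprr2g in 1. The lists differed in the same manner. Of 21 NRF2 antioxidant genes 8 had a difference called as lower in MT486 than in EV and none one called as higher, including Hmox1, heme oxygenase 1, at 0.13 and 1.8. Likewise 6 of 29 hypoxia and glycolysis genes, 6 of 27 immediate early genes and 4 of 22 ATF4 stress genes were called as lower in MT486, and none in these lists as higher. Of all 13805 genes tested 185 were called as lower in MT486. None of these differences from EV was called without the block. In MT486 itself 4 NRF2 genes rose and 1 fell, 8 of the hypoxia genes rose and 3 fell, and 9 ATF4 genes rose and none fell. Without the block no NRF2 gene passed, no hypoxia gene rose and 1 fell, and 1 ATF4 gene rose. With 1 MT486 library left out these 3 lists had at least 2, 6 and 3 members past the test. The heat shock list had 4 of 23 genes higher and 1 lower (3 in all without MT486 Ad-Cre replicate 1), the BCL2 family 2 of 13 and 1, and the PI3K and RAF kinases 3 of 26 each way (11.5%), near the shares of all genes tested. Without the block these were 2 higher, 1 lower, and 1 higher. The G2/M list had a median of 0.41 in MT486 and -0.83 in EV, with no member called in the difference.

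Against WT 32 genes were called (0.232%), 9 more positive and 23 more negative in MT486, and in all 32 the effect was larger in size in MT486. None was called without the block, where 260 had an unadjusted p under 0.05, and 87 were called by DESeq2 with the block. Leaving out 1 library gave between 7 genes (without MT486 Ad-GFP replicate 2 or WT Ad-Cre replicate 1) and 20 (without WT Ad-GFP replicate 2), and every one of these 8 fits fell below the main count by over 1.5 times. Differences were ranked among the 32 genes called, where the 8 libraries averaged 50 reads or more. The largest positive ones were those of Cnn1 (3.74 in MT486 and 1.84 in WT, difference 1.90 ± 0.36, adjusted p = 0.0386), Acta2 (3.59 and 1.77, difference 1.82 ± 0.30, adjusted p = 0.0386) and Oas1g (2.42 and 0.63, difference 1.8 ± 0.33, adjusted p = 0.0318). In WT, Oas1g was at 5.07 and 3.67 CPM after Ad-GFP and at 7.20 and 6.20 CPM after Ad-Cre. Its Ad-Cre levels in MT486 (6.04 and 5.85 CPM) were thus no higher, and its Ad-GFP levels (1.43 and 0.740 CPM) were lower. For Cnn1 and Acta2 the Ad-Cre levels were lower in WT, at 5.63 and 7.16 CPM and at 62.0 and 64.2 CPM. Barx2, a homeobox factor, was at 5.39 and 3.47 CPM after Ad-GFP and at 1.43 and 1.02 CPM after Ad-Cre in MT486, with a log2 fold change of -1.84 against -0.03 in WT (difference -1.81 ± 0.32, adjusted p = 0.0281). Mvd (difference -1.54 ± 0.19) and Tm7sf2 (-1.37 ± 0.18) followed, both at an adjusted p of 0.00105. In the 8 fits that left out 1 library, Mvd and Tm7sf2 were called in all, Acta2 and Oas1g in 2, and Cnn1 and Barx2 in 1. The 9 positive differences became 0 without MT486 Ad-GFP replicate 2 or WT Ad-Cre replicate 1, and 6 without WT Ad-GFP replicate 2 was the highest count.

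**Figure D4:**
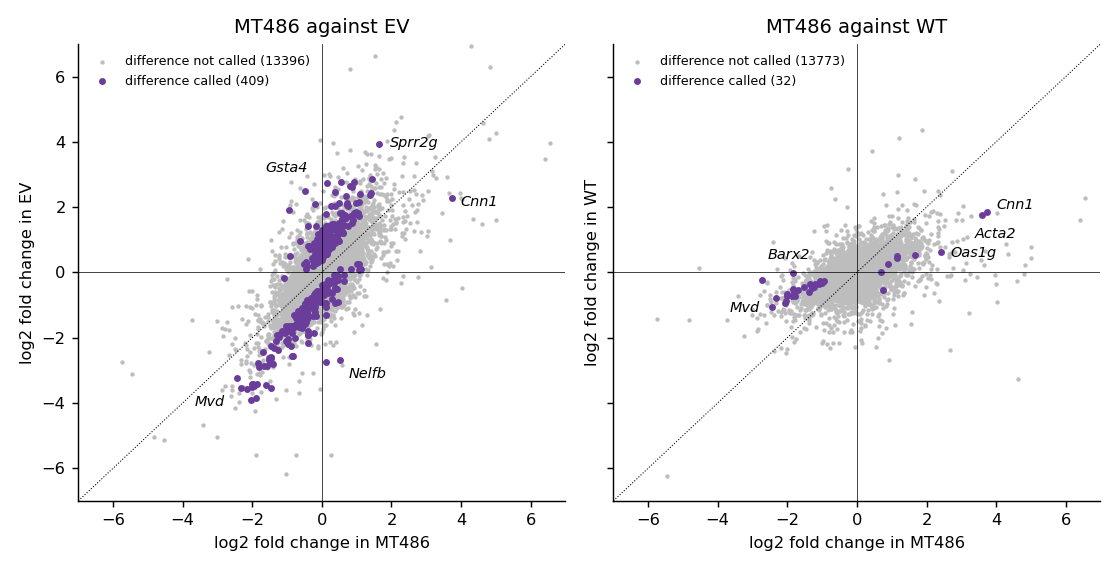
Log2 fold change of Ad-Cre against Ad-GFP in MT486 (x axis) against that in EV (left) and WT (right), 1 point per gene tested, with genes whose effects differed at an adjusted p under 0.05 in purple (409 and 32). On the left most purple points lie farther from 0 on the EV axis, and on the right all lie farther from 0 on the MT486 axis.

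Sterol genes were among those called in both comparisons. Of the 22 mevalonate and cholesterol synthesis genes, 13 had a difference called against EV, all less negative in MT486, and 10 had one called against WT, all more negative in MT486, with list medians of -2.80 in EV, -2.13 in MT194, -1.73 in MT486 and -0.58 in WT. Of all 13805 genes tested, 224 were called with a more positive value than in EV and 23 with a more negative value than in WT. In 21 of the 22 mevalonate genes, called or not, the MT486 value lay between the EV and the WT value. The counts of 13 and 10 depended on single libraries. The 13 fell to 1 without MT486 Ad-Cre replicate 1, to 2 without EV Ad-GFP replicate 2, to 5 without EV Ad-Cre replicate 2 or MT486 Ad-GFP replicate 2, to 6 without MT486 Ad-GFP replicate 1 and to 7 without EV Ad-Cre replicate 1. The 10 fell to 3 without MT486 Ad-Cre replicate 2, MT486 Ad-GFP replicate 2 or WT Ad-Cre replicate 1, to 4 without WT Ad-Cre replicate 2 or WT Ad-GFP replicate 1, and to 5 and 6 without MT486 Ad-GFP and Ad-Cre replicate 1. No member was called against either without the block. Against both EV and WT 13 genes were called, of which 12 lay between the 2 and 11 were on a sterol or fatty acid list, including Hmgcs1, Mvd, Sqle, Nsdhl, Tm7sf2, Scd1, Scd2, Fads1 and Fads2. Of these, Scd1 (-2.91 in EV, -1.798 in MT486 and -0.61 in WT) was called against both in all 8 fits of each comparison that left out 1 library. The others named were lost in at least 1 such fit. Against WT, Hmgcs1 and Sqle were called in 0 of the 8, Fads2 in 1, Fads1 and Nsdhl in 3, and Mvd, Tm7sf2 and Scd2 in all 8. Against EV, Tm7sf2 was called in 3, Hmgcs1 and Fads1 in 5, Sqle, Fads2 and Scd2 in 6, Mvd in 7 and Nsdhl in all 8. Rassf2, a RAS association domain protein, was also between the 2 and was called in 2 of the 8 fits in each comparison, and Cnn1 was outside, with 3.74 in MT486, 2.27 in EV and 1.84 in WT. Cnn1 was called in 1 of the 8 fits with a library left out in each comparison. In DMT, which carries both substitutions, the log2 fold change of Cnn1 was 3.685, close to that in MT486. For contractile genes as a list the medians were 0.83 in MT486, 0.88 in EV, 0.75 in MT194, 0.93 in DMT and 0.29 in WT. For interferon-stimulated genes they were 1.02, 0.80, 1.03, 0.56 and 0.49 in the same order. A fold change also depends on the Ad-GFP level, which for Oas1g was lower in MT486 than in WT. Ifi44 after Ad-GFP was at 40.9 and 12.9 CPM in MT486 and at 81.0 and 32.5 CPM in WT. After Ad-Cre it was at 127 and 80.1 CPM in MT486 and at 127 and 77.3 CPM in WT. The list as a whole was not compared in this way.

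**Figure D5:**
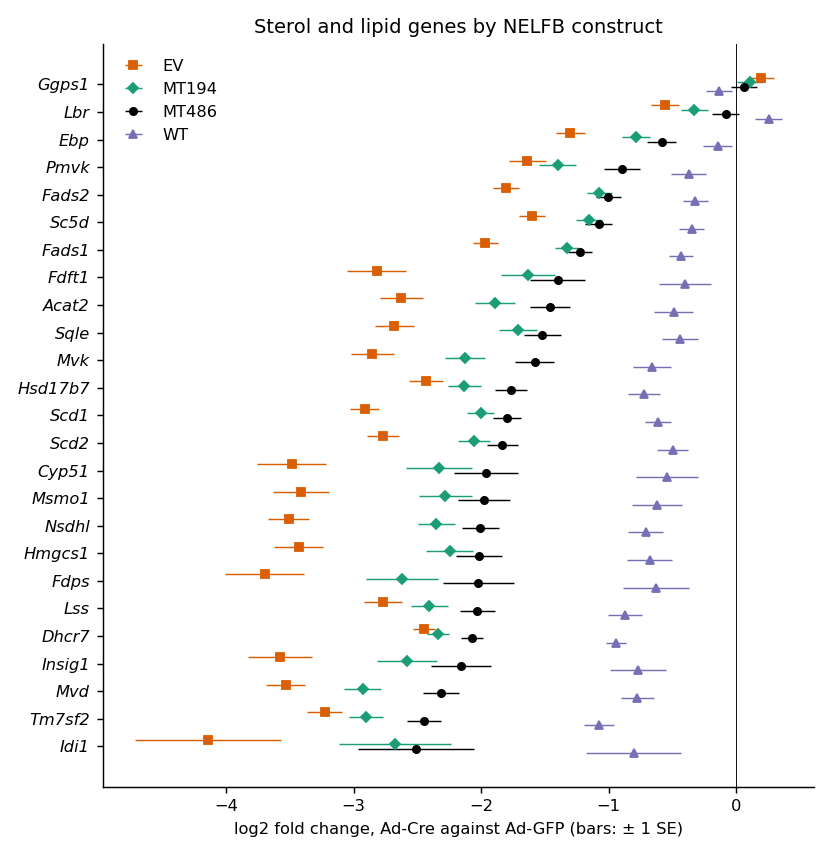
Log2 fold change of Ad-Cre against Ad-GFP, with bars of 1 SE, for 20 genes of mevalonate and cholesterol synthesis and 5 further sterol and lipid genes in EV, MT194, MT486 and WT populations, ordered by the MT486 value. For most genes EV lies farthest from 0 and WT nearest, with MT486 and MT194 between them.

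MT194 and MT486 carry substitutions at different positions of NELFB, and their Cre effects were compared directly. No gene was called (0%) by edgeR with or without the block or by DESeq2 with it, while 1066 genes had an unadjusted p under 0.05 in edgeR with the block. Without MT194 Ad-Cre replicate 1 the count was 63, and without MT486 Ad-GFP replicate 2 it was 1. Estimates for genes that led the MT486 response were close in MT194 for Ctgf (3.16 in MT486 and 3.05 in MT194), Oas2 (3.27 and 2.81) and Insig1 (-2.16 and -2.58), and farther apart for Cnn1 (3.74 and 2.45) and Acta2 (3.59 and 2.73). In 21 of the 22 mevalonate genes the MT194 value was the lower one. With 2 libraries per group a missing call does not show that the 2 substitutions act alike.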

How the data were processed

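Per the labels and methods, the authors sequenced poly(A)-selected stranded libraries with 50-base single reads, aligned them to mm10 with Bowtie2, dropped low mapping quality reads with SAMtools and deposited raw HTSeq counts per gene. Versions, and whether strand was used in counting, are not given in the sources used here. Bowtie2 does not place reads across junctions.

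Here, counts of 20 population libraries (10 groups) were fitted with edgeR 4.0.16 (R 4.3.3, limma 3.58.1) by the quasi-likelihood test with TMM scaling, filterByExpr, group means and the replicate number as a block, with Benjamini-Hochberg adjustment over 13805 genes. The block follows the pairing of replicates: same-numbered libraries deviated together in all 45 pairs of groups (r 0.42 to 0.73; 0.616 for MT486). DESeq2 1.42.0 was an alternative. Scripts were tested on simulated data. Fold changes are on the log2 scale, and total counts per library were 18205049 to 23819233 in MT486. The reads outside annotated genes (14.6 to 21.3%) stayed out of library sizes. No 2 libraries were identical, and replicates differed by far more than counting noise.

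Named genes were the NELF subunits, up to 4 members of each list, and the 12 largest increases and 12 largest decreases. These increases and decreases were called with and without the block, with at least 50 mean reads and groups that did not overlap. Also named were the 3 largest called differences in each direction against EV and WT (at least 50 mean reads over the 8 libraries). Other list members, the genes that differed from both EV and WT and motif matches were named after their values were seen. The members and lists were chosen with earlier results of these data known. The clonal lines were not analysed here. Some genes that the rule names are not reported here.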

Additional observations from a re-analysis of the deposited data

Results flagged for a closer look

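The results below stand out because the effect of Ad-Cre differed between MT486 and another construct by the test of the difference itself in edgeR with Benjamini-Hochberg adjustment. Against EV 409 genes differed and against WT 32 did. Without the block Nelfb was the 1 gene called against EV, and none was called against WT. Among genes with a mean of at least 50 reads over the 8 libraries compared, the largest differences from EV included those of Nelfb (3.19) and Stk32b (1.97) on the positive side and of Fosb (-2.85), Gsta4 (-2.59) and Sprr2g (-2.30) on the negative side. Nelfb, Stk32b and Gsta4 were called in all 8 fits that left out 1 library, and Fosb and Sprr2g in 1. For Fosb the 2 MT486 Ad-GFP libraries were at 15.3 and 2.39 CPM. Among genes called against WT, under the same limit on reads, the largest positive differences were those of Cnn1 (1.90), Acta2 (1.82) and Oas1g (1.799). That of Oas1g came with lower Ad-GFP levels in MT486 than in WT, while its Ad-Cre levels were no higher. The largest negative differences were those of Barx2 (-1.81), Mvd (-1.54) and Tm7sf2 (-1.37). With 1 library left out Mvd and Tm7sf2 were called in all 8 fits, Acta2 and Oas1g in 2, and Cnn1 and Barx2 in 1.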

How the results depend on the processing

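The 586 genes called in MT486 became 1673 with the fold change threshold at 0.5 (766 higher, 907 lower) and 201 with no replicate block. They stayed within 1.5 times under DESeq2 with the block (532), DESeq2 size factors (589), no filter on low counts (558), MT486 alone (502) and with 1 library left out (443 to 530). The 409 differences from EV became 116 with a size over 1, 1 without the block, 634 by DESeq2, 635 with the groups alone and 52 to 311 with 1 library left out. The 32 differences from WT became 19, 0, 87, 99 and 7 to 20 in the same order. Against MT194 the count was 0 throughout, apart from leaving out libraries (0 to 63). Of 145 named genes 74 no longer passed without the block, 1 under DESeq2, and 19 to 30 with 1 library left out, and all but 4 kept their direction under every alternative. Those 4 did not pass to begin with: Mki67 ranged from -0.0528 to 0.8307 and Top2a from -0.01106 to 0.6623, Lck from -0.4311 to 0.8967 (0.03542 by DESeq2) and Fosb from -1.663 to 0.6527 as single libraries were left out. The cause was not tested. Some named genes rest on few reads in a library (Spib 21 and 11 after Ad-Cre; Oas2 and Oas1g 13, Cnn1 17 and Psmb9 12 in Ad-GFP replicate 2), and 2 libraries per group limit what can be detected.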
